A study of Mus musculus with 1753 samples.

Results

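The 10 genes that encode the chains of fibrillar collagens were followed through fibroblasts and mural cells of mouse skeletal muscle. They were chosen by symbol (Col1a1, Col1a2, Col2a1, Col3a1, Col5a1, Col5a2, Col5a3, Col11a1, Col11a2 and Col24a1) among the 46517 genes of the count table, and all 10 had counts. Single cells had been sorted from muscle (gastrocnemius, soleus or both) of male mice aged 10 to 20 weeks, as cells positive for PDGFRα or PDGFRβ or for a fluorescent reporter and negative for the endothelial protein CD31. Full-length cDNA was sequenced with Smart-seq2, which carries no molecular identifiers, so that intervals and limits given below cover counting error only. The labels gave 1753 cells, 10 clusters and 5 strain labels.

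C57BL6 is an inbred strain without a reporter. Acta2GFP, Cspg4dsRED and PdgfrbGFP are reporter lines whose fluorescent protein is driven by the gene each is named for, and Acta2GFP tissue had also been treated with elastase. The PdgfraGFP - PdgfrbGFP pool held cells of a pair of reporter lines. The labels name no animal, so a strain label served as the replicate and p-values measure the spread between these labels; cells of PdgfrbGFP and of the pool may or may not come from a common animal. The paper named clusters 1, 3, 5, 6 and 8 endomysial fibroblasts (for the sheath of single muscle fibres, 1116 cells). It named clusters 2 and 9 perimysial fibroblasts (for the sheath of fibre bundles, 328 cells) and cluster 4 paramysial fibroblasts (60 cells). It anticipates that the endomysial clusters also hold fibroadipogenic progenitors and perivascular fibroblasts, and leaves this to further work. Cluster 7 holds mural cells, a class of vascular smooth muscle cells and pericytes (187 cells). The paper reports that only few pericytes were captured from skeletal muscle. Cluster 10 (62 cells) was given no short class name. The paper describes its cells as a further fibroblast subtype that expressed Cspg4, Pdgfra and Ngfr, and located them along the edges of nerve fibres. The authors had made these clusters from the same counts, so the differences below are descriptions of the clusters and no independent test of them.

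Fibrillar collagens are secreted as procollagens of 3 chains, trimmed by proteinases and assembled into the banded fibrils that carry tension. Type I, built of Col1a1 and Col1a2 chains, forms the bulk of most fibrils, and type III, a homotrimer of Col3a1, joins it in pliable tissues. Type V (Col5a1, Col5a2 and Col5a3) and the closely related type XI (Col11a1 and Col11a2) sit inside fibrils and limit their width. Type II (Col2a1) is the main fibril of cartilage, and type XXIV (Col24a1) is a minor chain known best from bone.

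Every value called a level is a mean over cells of counts scaled to 500000 counts per cell without spike-in RNA. Median depth was 257230 counts in perimysial, 276881 in endomysial, 595321 in paramysial and 156959 in mural cells. The mural and perimysial marker lists hold genes that the paper reported for these classes from the same data. They thus describe the classes and do not test them. All 6 genes of the mural list were at 100 or more scaled counts in over 30% of mural cells and 0 of 6 were in endomysial cells. Myh11 reached that level in 90.8% and Rgs5 in 30.6% of mural cells. All 5 genes of the perimysial list (such as Scx and Tnmd) passed this level in perimysial cells. Of the perimysial list, 3 of 5 genes also passed in paramysial cells and 2 in cluster 10. Of 6 fibroblast markers, 6 passed in endomysial and 3 in perimysial cells, where Pdgfra reached it in 2.82% of cells. Markers of endothelial, immune, skeletal muscle, satellite, Schwann and fat cells passed it for 0 genes of these lists in any class. Summed levels of the endothelial list ranged from 0 to 153 over all classes and strains, those of the immune list from 0 to 323 and those of the skeletal muscle list from 0 to 257. They ranged from 0 to 36.1 for the satellite cell list, from 0 to 43.6 for the Schwann list and from 0 to 0.204 for the adipocyte list.

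Across the clusters, the 10 genes fell into a broad and a narrow pattern. Col1a1, Col1a2 and Col3a1 were at 100 or more scaled counts in most cells of every fibroblast cluster, and the type V genes in part of them. Col11a1, Col11a2, Col2a1 and Col24a1 were found mainly in the perimysial clusters. The levels by class and strain show this split.

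**Figure D1:**
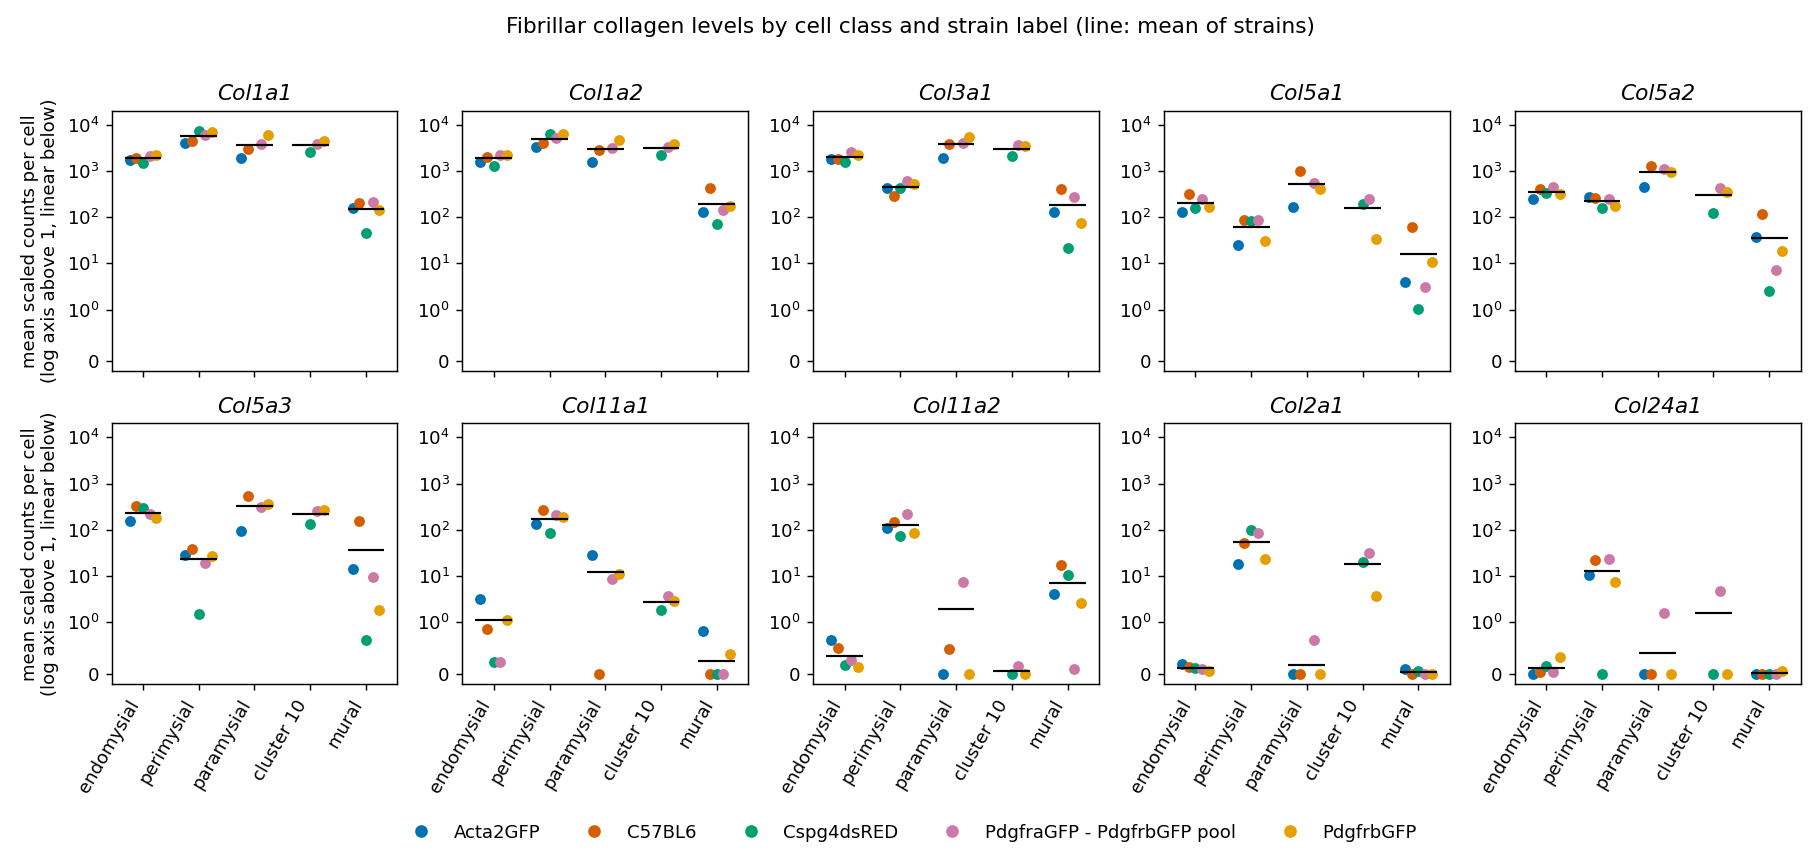
Mean scaled counts per cell (500000 counts per cell, log axis above 1 and linear below) of each fibrillar collagen gene, with 1 point for each strain label and a line at the mean of strains. Perimysial points lie above endomysial points for Col1a1, Col11a1, Col11a2 and Col2a1 and below them for Col3a1, Col5a1 and Col5a3.

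Upstream sequences from RefSeq (GRCm38.p6) were matched for 7 of the 10 genes. The 250 bases before the RefSeq start are shown for the pair of type XI genes, which are high in perimysial cells, and for Col3a1, which is low there. Capitals mark the motif CCAAT, the motif TATAAA and the motif GGGCGG on either strand, and none of these matches overlaps another. The windows lie at chr3:114030290-114030539 (plus strand) for Col11a1, chr17:34038888-34039137 (plus strand) for Col11a2 and chr1:45311288-45311537 (plus strand) for Col3a1.
Col11a1: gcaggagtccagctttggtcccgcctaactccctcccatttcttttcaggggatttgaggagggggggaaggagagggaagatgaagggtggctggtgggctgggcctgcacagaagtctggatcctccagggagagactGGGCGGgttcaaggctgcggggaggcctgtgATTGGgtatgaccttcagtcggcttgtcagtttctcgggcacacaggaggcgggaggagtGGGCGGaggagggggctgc
Col11a2: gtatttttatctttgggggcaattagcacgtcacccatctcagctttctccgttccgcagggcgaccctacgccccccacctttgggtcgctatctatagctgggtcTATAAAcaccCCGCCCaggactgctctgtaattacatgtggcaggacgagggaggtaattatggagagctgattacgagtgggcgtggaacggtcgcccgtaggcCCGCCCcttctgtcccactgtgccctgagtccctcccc
Col3a1: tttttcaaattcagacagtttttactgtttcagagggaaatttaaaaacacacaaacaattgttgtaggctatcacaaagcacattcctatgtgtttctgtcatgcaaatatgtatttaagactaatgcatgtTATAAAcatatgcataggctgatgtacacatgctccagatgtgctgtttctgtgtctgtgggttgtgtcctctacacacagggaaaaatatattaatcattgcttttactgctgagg

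TATAAA was found in the windows of Col3a1 and Col11a2 and in 12.97% of 27025 windows of the same length. CCAAT was found for Col1a2, Col5a3 and Col11a1, against 34.5% of all windows. GGGCGG was found for Col1a2, Col5a1, Col5a3, Col11a1 and Col11a2, against 32.9%. Searched on both strands, ACAAAG was found for Col3a1 only among the 7, against 16.5% of windows, and CANNTG for Col3a1, Col5a3, Col11a2 and Col24a1, against 66.04%. The type XI genes thus shared GGGCGG and differed in TATAAA and CCAAT.

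The comparison of perimysial with endomysial cells described how the fibril chains differ between these classes. The paper had named the perimysial clusters in part by high Col11a1 and low Col3a1. Differences in these genes thus follow in part from the naming and are no independent finding. Of 9 members tested, 8 were called at an adjusted p under 0.05, 5 higher and 3 lower in perimysial cells, where 5.57% of 14121 genes were called, 2.32% higher and 3.26% lower. Type I and the type XI and II genes were higher, while Col3a1, Col5a1 and Col5a3 were lower. The median log2 fold change was 1.41 over the 9 members and -0.19 over all genes tested. Values of 8 of the 9 did not overlap between the classes over the 5 strains, as for 6.76% of genes.

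Col1a1, which encodes the α1 chain of type I, had perimysial levels of 3941 in Acta2GFP, 4436 in C57BL6, 7191 in Cspg4dsRED, 6013 in the pool and 7022 in PdgfrbGFP. Its endomysial levels were 1692, 1906, 1449, 2066 and 2174 in the same order. All perimysial values lay above all endomysial values, and the log2 fold change was 1.59 ± 0.18 (SE, n = 5, adjusted p = 0.00276 in the quasi-likelihood test of edgeR, adjusted after Benjamini and Hochberg, as for all adjusted p-values below). Col1a2, the partner chain, was at 3287 to 6225 in perimysial and 1280 to 2231 in endomysial cells. Its log2 fold change was 1.41 ± 0.20 (SE, n = 5, adjusted p = 0.00656, edgeR).

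Col3a1, the only chain of type III, went the other way. It was at 426 in Acta2GFP, 283 in C57BL6, 431 in Cspg4dsRED, 589 in the pool and 515 in PdgfrbGFP in perimysial cells, and at 1802, 1818, 1566, 2599 and 2230 in endomysial cells. The ranges did not overlap, and Col3a1 fell by 2.00 ± 0.13 on the log2 scale (SE, n = 5, adjusted p = 0.000325, edgeR). It was at 100 or more scaled counts in 63.7% ± 16.8 of perimysial cells (SD, n = 5 strains) and in 97.1% ± 6.07 of endomysial cells. With cells thinned to 50000 counts and a level of 10, these shares were 64.1% and 97.1%.

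Type V was lower in perimysial cells in 2 of its 3 genes. Col5a1, which every type V molecule needs, was at 25.5, 86.7, 80.7, 84.9 and 30.7 in perimysial cells of Acta2GFP, C57BL6, Cspg4dsRED, the pool and PdgfrbGFP. In endomysial cells it was at 130, 315, 155, 246 and 163. Each perimysial value was below each endomysial value, and Col5a1 fell by 2.01 ± 0.23 on the log2 scale (SE, n = 5, adjusted p = 0.00276, edgeR).

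Col5a3, a chain of a less common form of type V, was at 1.53 to 38.4 in perimysial and 156 to 332 in endomysial cells. It fell by 3.36 ± 0.71 on the log2 scale (SE, n = 5, adjusted p = 0.0356, edgeR). That call was lost without Acta2GFP, C57BL6, the pool or PdgfrbGFP, with adjusted p-values of 0.0896 to 0.126 by edgeR. Col5a2, the second chain of the common form, was at 156 to 272 in perimysial and 245 to 446 in endomysial cells, and these ranges overlapped. Its log2 fold change of -0.53 ± 0.17 missed the threshold (SE, n = 5, adjusted p = 0.166, edgeR), but passed with plates as units (adjusted p = 0.0297) and without Acta2GFP (adjusted p = 0.0447).

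The type XI genes were near 0 in endomysial cells. Col11a1 had perimysial levels of 136.2 in Acta2GFP, 263 in C57BL6, 85.2 in Cspg4dsRED, 208 in the pool and 185 in PdgfrbGFP. Endomysial levels were 3.23, 0.864, 0.235, 0.218 and 1.14. The lowest perimysial value was thus above the highest endomysial value, with a log2 fold change of 8.02 ± 0.74 (SE, n = 5, adjusted p = 0.000961, edgeR).

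Col11a2, the second chain of type XI, was at 71.9 to 217 in perimysial and 0.121 to 0.665 in endomysial cells. Its log2 fold change was 9.04 ± 0.45 (SE, n = 5, adjusted p = 0.00011, edgeR). At 100 or more scaled counts, Col11a1 was found in 51.1% ± 23.2 and Col11a2 in 38.4% ± 16.6 of perimysial cells (SD, n = 5 strains). Among endomysial cells, 1 of 1116 reached that level of Col11a1 and 0 of 1116 that of Col11a2, which allows a share of up to 0.269%. Thinned to equal depth, the perimysial shares were 55.01% and 38.8%.

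Col2a1, the cartilage chain, was near 0 in endomysial cells too. It was at 18.02 in Acta2GFP, 52.2 in C57BL6, 97.2 in Cspg4dsRED, 84.98 in the pool and 23.4 in PdgfrbGFP in perimysial cells, and at 0.0488 to 0.194 in endomysial cells. The ranges were far apart, with a log2 fold change of 9.08 ± 0.51 (SE, n = 5, adjusted p = 0.000187, edgeR). It reached 100 scaled counts in 14.3% ± 7.97 of perimysial cells (SD, n = 5 strains) and in 0 of 1116 endomysial cells.

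Col24a1 was found at 10.4 in Acta2GFP, 22.5 in C57BL6, 0 in Cspg4dsRED, 23.4 in the pool and 7.51 in PdgfrbGFP in perimysial cells, against 0 to 0.3295 in endomysial cells. Cspg4dsRED gave 18 perimysial cells, and the other strains were all above every endomysial value. The gene did not pass the filter on low counts; with no filter its log2 fold change was 7.71 ± 1.71 (SE, n = 5, adjusted p = 0.0422, edgeR). Col27a1, a related chain outside the list, was at 0 to 1.03 in perimysial and 0.0557 to 11.5 in endomysial cells and missed the threshold (adjusted p = 0.32, edgeR).

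Cartilage markers moved with these genes in part. The summed level of the 5 cartilage genes was 2978 to 10726 in perimysial and 151 to 1096 in endomysial cells. Chad (3017) and Comp (2441) made up most of the perimysial mean, while Acan, the defining cartilage proteoglycan, was at a mean of 1.35 and Sox9, a regulator of cartilage genes, at 7.25. Their part in the result was not tested.

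**Figure D2:**
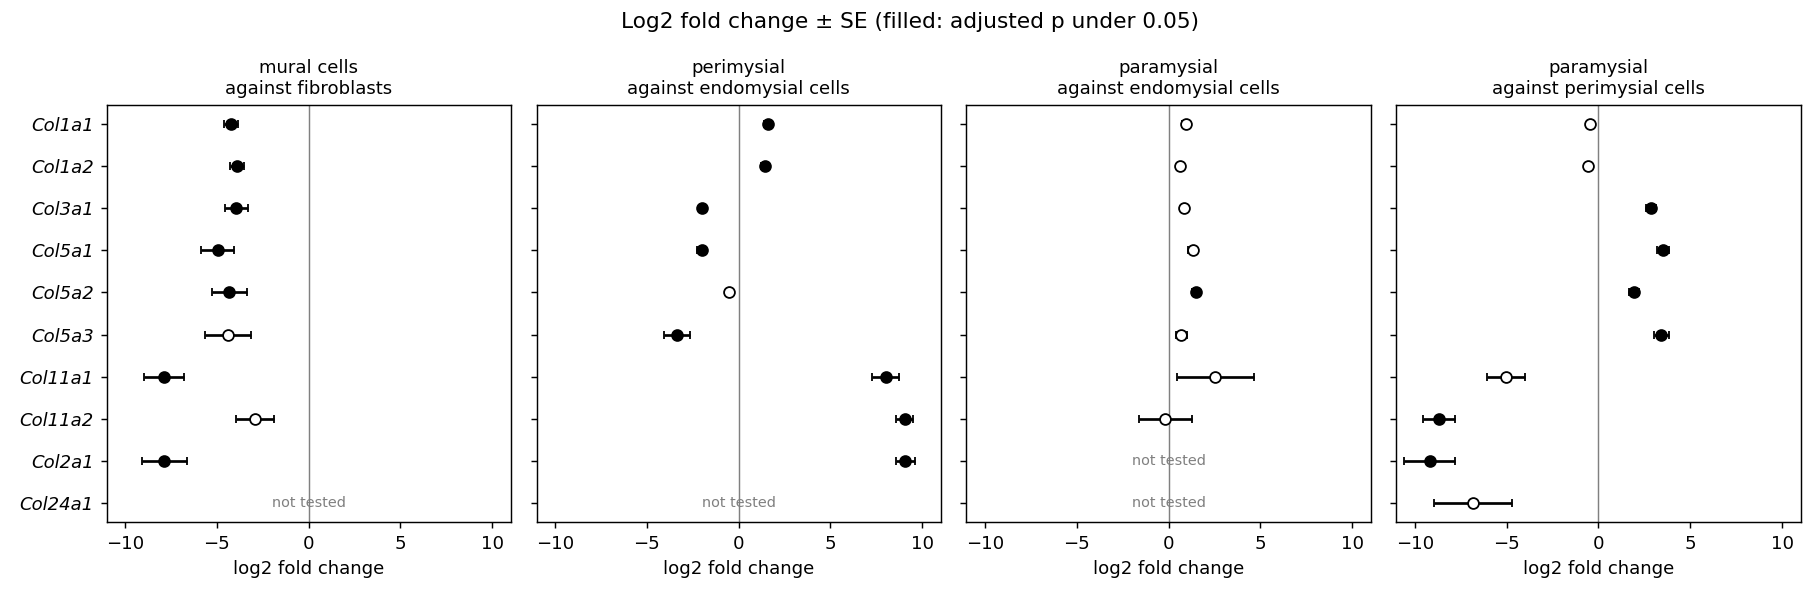
Log2 fold change ± SE of each fibrillar collagen gene in 4 comparisons over 5, 5, 4 and 4 strain labels, with filled points for an adjusted p under 0.05 by edgeR and "not tested" where counts were too low. Perimysial against endomysial values run from -3.36 for Col5a3 to 9.08 for Col2a1.

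Per length of transcript, the make-up of the fibrillar set differed between the perimysial and endomysial classes. Col3a1 and Col11a1, used in the naming of the perimysial clusters, enter the ratios below. The ratio of Col1a1 to Col3a1 counts per kb was 0.754 to 1.00 in endomysial cells and 6.47, 13.5, 16.3, 7.12 and 12.7 in perimysial cells of Acta2GFP, C57BL6, Cspg4dsRED, the pool and PdgfrbGFP. It was higher in perimysial cells in 5 of 5 strains, by 3.58 ± 0.53 on the log2 scale (SD, n = 5, p = 0.0625 in an exact two-sided sign-flip permutation test, the smallest that 5 strains allow). Adjusted over the 3 quantities tested this way, p stayed at 0.0625.

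Col11a1 to Col5a1 per kb was 0.000907 to 0.0282 in endomysial cells and 9.39, 3.53, 1.60, 4.36 and 7.43 in perimysial cells, in the same order of strains. Col5a1 was thus the larger of the pair in endomysial cells and Col11a1 in perimysial cells of all 5 strains. Col5a2 to Col5a1 per kb was 1.53 to 2.51 in endomysial and 2.74 to 16.1 in perimysial cells. These ranges did not overlap, and neither ratio was tested.

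Col1a1 to Col1a2 per kb stayed near 1, at 0.927 ± 0.081 in endomysial and 1.04 ± 0.035 in perimysial cells (SD, n = 5). It was higher in perimysial cells by 0.17 ± 0.11 on the log2 scale in 5 of 5 strains (SD, exact sign-flip permutation p = 0.0625). The 10 genes together took 1.08%, 1.34%, 1.03%, 1.53% and 1.33% of endomysial counts in Acta2GFP, C57BL6, Cspg4dsRED, the pool and PdgfrbGFP. Their share of perimysial counts was 1.401%, 1.87%, 2.61%, 2.35% and 2.67%, a log2 difference of 0.77 ± 0.40 with the same sign in 5 of 5 strains (SD, exact sign-flip permutation p = 0.0625).

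**Figure D3:**
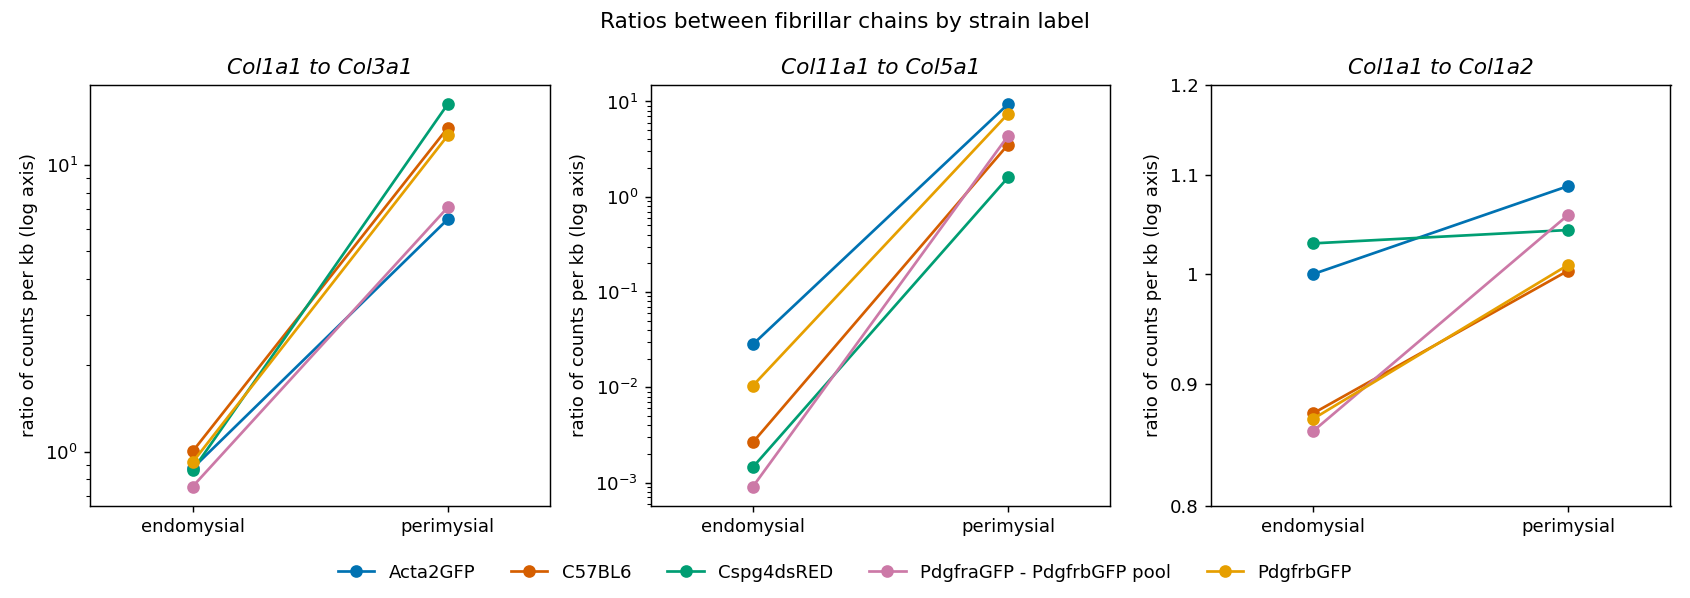
Ratios of counts per kb of principal transcript (log axis) for Col1a1 to Col3a1, Col11a1 to Col5a1 and Col1a1 to Col1a2, with a line for each strain label. All 5 lines rise from endomysial to perimysial cells in each panel, Col1a1 to Col1a2 only from 0.927 to 1.04 on average.

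The 45 genes of collagen processing and binding were all tested in this comparison, and 7 were higher and 6 lower in perimysial cells, beside 2.32% and 3.26% of all genes. P3h2, a prolyl 3-hydroxylase, was higher by 6.23 ± 0.45 on the log2 scale (SE, n = 5, adjusted p = 0.000426, edgeR). Adamts3, an N-propeptide proteinase of fibrillar procollagens, was higher by 3.32 ± 0.75 (adjusted p = 0.0472, edgeR) and P4ha1, a catalytic subunit of prolyl 4-hydroxylase, by 1.51 ± 0.14 (adjusted p = 0.000844, edgeR). Related enzymes moved the other way: Adamts14 fell by 6.23 ± 1.04 (adjusted p = 0.0133, edgeR), the collagen galactosyltransferase gene Colgalt2 fell by 5.10 ± 0.81 (adjusted p = 0.0109, edgeR) and P4ha2 fell by 3.83 ± 0.64 (adjusted p = 0.0135, edgeR). The list's median was 0.44 on the log2 scale, beside -0.19 over all genes.

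Values of 7 listed transcription factors were read in the same comparison. Scx and Mkx, both factors of tendon cells, rose by 8.57 ± 0.76 and 8.54 ± 0.56 on the log2 scale (SE, n = 5, adjusted p = 0.000838 and 0.000325, edgeR). Sox9 had a log2 fold change of -1.76 ± 0.42 (adjusted p = 0.0577, edgeR), Sox5 of -1.91 ± 0.74 (adjusted p = 0.26, edgeR) and Sox6 of 5.23 ± 1.65 (adjusted p = 0.152, edgeR). None of these passed the test, nor did Egr1 at -0.37 ± 0.11 or Creb3l1 at 0.75 ± 0.30 (adjusted p = 0.122 and 0.274, edgeR).

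Within the perimysium, cluster 9 was set against cluster 2 over 4 strains. Of 10 members tested, Col1a1 and Col1a2 were called, both lower in cluster 9, where 0.920% of 11843 genes were called, 0.363% higher and 0.557% lower. Values of 3 of the 10 members and 6.80% of genes did not overlap. Col1a1 was at 3325, 3574, 3952 and 3645 in cluster 9 of Acta2GFP, C57BL6, the pool and PdgfrbGFP, and at 5122, 4510, 6701 and 7615 in cluster 2. Cluster 9 was lower in each strain, and Col1a1 fell by 0.89 ± 0.15 on the log2 scale (SE, n = 4, adjusted p = 0.0424, edgeR).

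Col1a2 fell by 1.02 ± 0.16 (SE, n = 4, adjusted p = 0.0311, edgeR). Both calls were lost without any of the 4 strains in turn, with adjusted p-values of 0.0502 to 0.257 by edgeR. Col5a1 was at 16.6, 28.4, 31.8 and 16.6 in cluster 9 and 42.5, 91.7, 102.5 and 33.2 in cluster 2 of the same strains, with no overlap. Its log2 fold change of -1.37 ± 0.38 missed the threshold (adjusted p = 0.221, edgeR) but was called by DESeq2 (0.04). Col11a1 (222 ± 79.03 in cluster 9 and 169 ± 65.1 in cluster 2), Col11a2 (120 ± 45.2 and 130.9 ± 62.8) and Col2a1 (60.99 ± 49.3 and 47.2 ± 31.9) differed by less than their SD (SD, n = 4 strains in cluster 9 and 5 in cluster 2). Their log2 fold changes were 0.11 ± 0.21, -0.47 ± 0.21 and 0.76 ± 0.44 (SE, n = 4). The median was -0.33 over the 10 members and -0.12 over all genes.

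Paramysial cells had the highest mean levels of Col3a1, Col5a1, Col5a2 and Col5a3 among the clusters, though each overlapped the next cluster in its strain values. Against endomysial cells, over 4 strains, 1 of 8 members tested was called, where 0.0963% of 14533 genes were called, 0.0757% higher and 0.0206% lower. Values of 2 of the 8 did not overlap between the classes, as for 9.34% of genes. The member called was Col5a2, at 438 in Acta2GFP, 1282 in C57BL6, 1114 in the pool and 943 in PdgfrbGFP in paramysial cells and at 245, 399.9, 446 and 314 in endomysial cells. All of these strains were higher in paramysial cells, by 1.497 ± 0.21 on the log2 scale (SE, n = 4, adjusted p = 0.0282, edgeR).

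That call was not made by DESeq2 (adjusted p = 0.148), without the replicate block (0.0798), without C57BL6 (0.0961) or without the pool (0.106), where the log2 fold change was 1.44 to 1.60. With equal numbers of cells it was 0.80 and not called. Paramysial sums rested on 46 cells of the pool and 3 to 6 cells of each other strain. Without Acta2GFP, Col1a1, Col3a1 and Col5a1 passed as well, with log2 fold changes of 0.94, 0.91 and 1.38. The median was 0.90 over the 8 members and -0.86 over all genes tested.

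Against perimysial cells, a comparison that shares its paramysial samples with the one above and its perimysial samples with the first, 6 of 10 members were called. The test called 0.871% of 12861 genes (0.381% higher, 0.490% lower). Values of 8 of the 10 members and 9.21% of genes did not overlap. Col3a1 was higher in paramysial cells by 2.85 ± 0.28, Col5a1 by 3.52 ± 0.30, Col5a2 by 1.91 ± 0.27 and Col5a3 by 3.42 ± 0.40 on the log2 scale (SE, n = 4, adjusted p = 0.00223, 0.00142, 0.0142 and 0.00454, edgeR). The Col5a2 call was lost without C57BL6 (adjusted p = 0.0563) or the pool (0.0604).

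Type XI and II went the other way. Col11a2 had 0, 1, 79 and 0 counts in paramysial cells of Acta2GFP, C57BL6, the pool and PdgfrbGFP against 1983, 12927, 5787 and 3578 in perimysial cells, and fell by 8.66 ± 0.87 on the log2 scale (SE, n = 4, adjusted p = 0.00251, edgeR). Col2a1 had 18 counts in the pool and 0 in the other paramysial strains, and its call (adjusted p = 0.0197, edgeR) was lost without the pool (0.357). Col11a1 was at 28.8, 0, 8.64 and 10.9 scaled counts in paramysial cells, in the same order, and its log2 fold change of -5.03 ± 1.02 missed the threshold (adjusted p = 0.0732, edgeR). Col11a1 passed with no filter on low counts (0.000121), with DESeq2 (7.82e-05), without the replicate block (0.0248), with plates as units (0.0446) and without Acta2GFP (0.0249) or C57BL6 (0.00646). Col1a1 and Col1a2 had log2 fold changes of -0.49 ± 0.16 and -0.57 ± 0.15 and missed it too (adjusted p = 0.329 and 0.215, edgeR). Both passed with no filter, at -0.62 and -0.71 (1.79e-05 and 1.98e-06), and Col1a2 with plates as units (0.0396). The median was -0.53 over the 10 members and -0.70 over all genes.

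The number of members at 100 or more scaled counts in the same cell also differed, over cells pooled across strains. The median was 5 of 10 in endomysial, 6 in paramysial, 4.5 in cluster 10, 4 in perimysial and 1 in mural cells. Paramysial cells were the deepest (median 595321 counts), with 46 of 60 from the pool, and mural cells the shallowest (156959). The part of depth in these medians was not tested. In 82 of 187 mural cells no member reached that level.

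**Figure D4:**
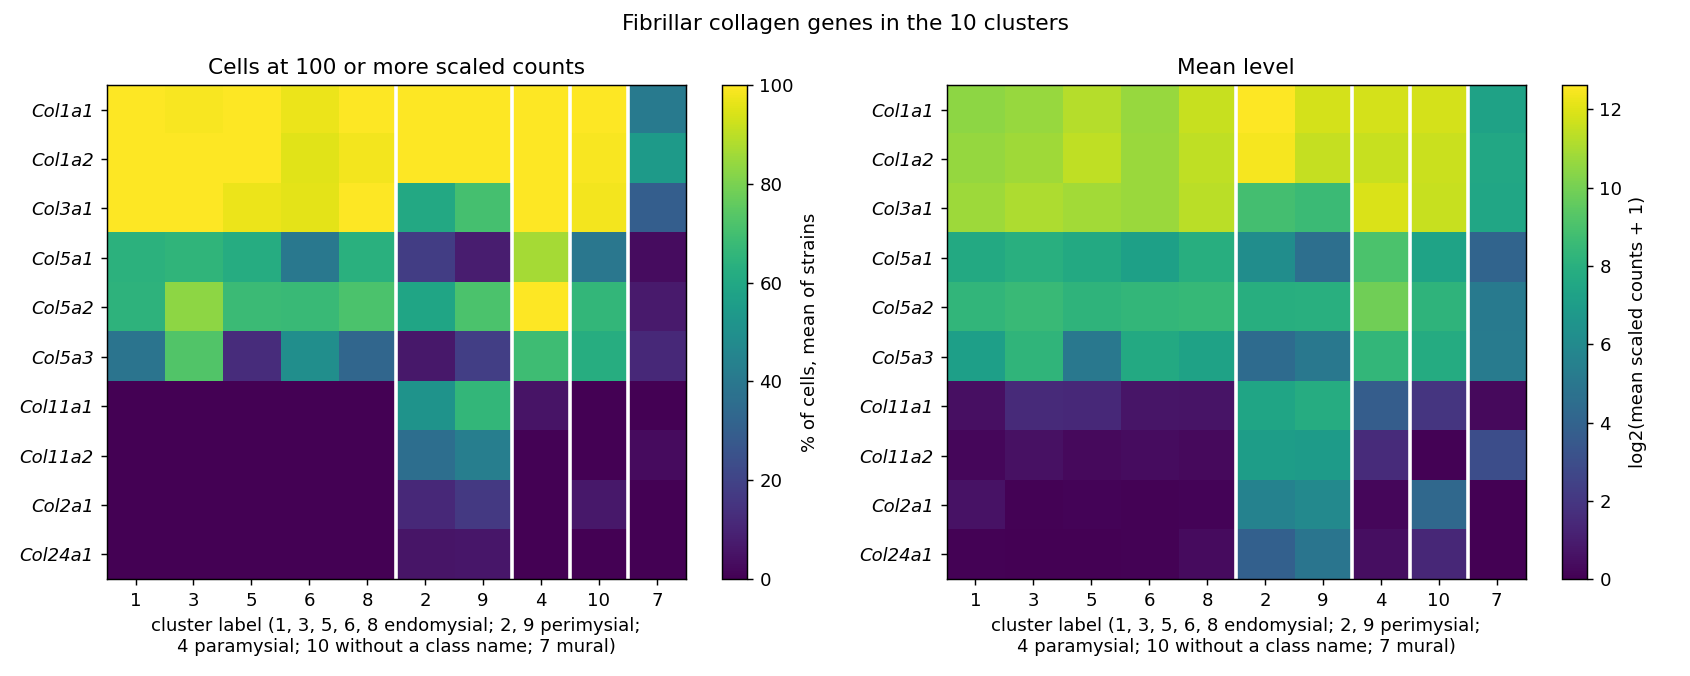
Share of cells at 100 or more scaled counts and log2(mean scaled counts + 1), both as means of strains, for each member (rows) in each cluster (columns, ordered by class). Col11a1 reaches 51.5% and 66.4% of cells in clusters 2 and 9 and at most 5.25% in any other cluster.

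Mural cells carried far less fibrillar collagen RNA than fibroblasts. Of 9 members tested, 7 were called, all lower, where 15.4% of 13880 genes were called, 6.15% higher and 9.27% lower. Col1a1 was at 157 in Acta2GFP, 201 in C57BL6, 46.2 in Cspg4dsRED, 210 in the pool and 145 in PdgfrbGFP in mural cells, below every fibroblast value, and fell by 4.24 ± 0.37 on the log2 scale (SE, n = 5, adjusted p = 0.000255, edgeR). The log2 fold changes were -3.89 ± 0.39 for Col1a2, -3.94 ± 0.63 for Col3a1, -4.94 ± 0.90 for Col5a1 and -4.31 ± 0.94 for Col5a2 (SE, n = 5, adjusted p = 0.000431, 0.00412, 0.00705 and 0.0158, edgeR).

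The Col5a2 call was lost without the pool (adjusted p = 0.0564) or PdgfrbGFP (0.0534). Col11a1 and Col2a1 were lower, at -7.87 ± 1.11 and -7.85 ± 1.24 (adjusted p = 0.00214 and 0.00377, edgeR), from mural sums of 0 to 20 and 0 to 3 counts per strain. Col5a3 (-4.39 ± 1.27, adjusted p = 0.0505, edgeR) missed the threshold. It passed with no filter (0.0314), with DESeq2 (2.21e-05), with plates as units (0.00386), with cells weighted alike (0.042) and without C57BL6 (0.0147). Col11a2 (-2.93 ± 1.03, adjusted p = 0.101, edgeR) missed it as well but was called by DESeq2 (0.00183). In Cspg4dsRED its level from summed counts was 9.87 in mural cells and 9.68 in fibroblasts. The fibroblast sums include perimysial cells, and single classes differed. As a mean of strains, Col11a2 was at 6.99 in mural cells, above endomysial (0.341), paramysial (1.93) and cluster 10 cells (0.0473). Col5a3 was at 36.6 in mural cells (0.653 to 157 over strains) and 22.8 in perimysial cells. Col11a1 and Col2a1 were near 0 in both mural (0.242 and 0.0280) and endomysial cells (1.14 and 0.111). The median was -4.31 over the 9 members and -0.46 over all genes.

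The type I and III signal that mural cells had was set beside that of the 6 fibroblast markers. From summed counts, mural levels were 5.33% of fibroblast levels for Col1a1, 7.42% for Col1a2 and 9.70% for Col3a1, as means over 5 strains. For the markers they were 6.47% for Dcn, 2.51% for Lum, 2.46% for Cd34, 1.77% for Fbln1, 1.26% for Pdgfra and 1.92% for Mmp2. Cspg4dsRED was lowest for the 3 collagens and for all 6 markers, such as Col1a1 (1.74%) and Dcn (1.04%). C57BL6, with 9 mural cells, was highest for Col1a1 (7.85%), Col1a2 (16.7%) and Col3a1 (28.3%) but not for the markers, with Dcn at 5.73%, Pdgfra at 0.600% and Mmp2 at 1.01%. The order of strains thus differed between collagens and markers, but the C57BL6 values rest on 9 cells. Of the scaled Col3a1 counts of these 9 cells, 42.5% came from 1 cell. Rgs5 was at 2636 in them and at 1015 in mural cells as a mean of strains. The summed level of the 6 markers was 80.5 to 531 in mural cells and 5040 to 13359.5 in the other classes. Their part in the result was not tested.

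Cluster 10 cells, which stood apart by Ngfr, came from 3 strains. No member of 8 tested was called against endomysial cells by edgeR, where 0.442% of 12455 genes were called (0.265% higher, 0.177% lower). At an unadjusted p under 0.05 there were 1113 genes. DESeq2 called Col1a1 and Col2a1. Values of 5 of the 8 did not overlap, as for 17.7% of genes. Col1a1 was at 2522 in Cspg4dsRED, 3865 in the pool and 4344 in PdgfrbGFP, above the endomysial value of each (1449, 2066 and 2174), with a log2 fold change of 1.04 ± 0.20 (SE, n = 3, adjusted p = 0.15, edgeR). The median was 0.73 over the 8 members and -0.41 over all genes.

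Col2a1 was at 20.4 in Cspg4dsRED, 31.03 in the pool and 3.63 in PdgfrbGFP, with a log2 fold change of 7.44 ± 1.69 (SE, n = 3, adjusted p = 0.212, edgeR). Its counts came from few cells: 3 of 37, 2 of 17 and 0 of 8 cells reached 100 scaled counts. Type XI was not seen at that level, as 0 of 62 cluster 10 cells reached 100 scaled counts of Col11a1 or Col11a2, which allows up to 4.84%. Below it, Col11a1 had a count in 27.2% of cluster 10 cells, at a level of 2.80 (means of strains). In endomysial cells it had a count in 22.5%, at a level of 1.14. Sox9 was at 358, 474 and 365 and Acan at 0 in cluster 10 of these strains.

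Among the 5 endomysial clusters, an F test called Col1a1 and Col1a2 of 8 members, where 5.41% of 16520 genes were called. Col1a1 was at 1444 ± 439 in cluster 1, 1659 ± 280.0 in cluster 3, 2359 ± 447 in cluster 5, 1636 ± 257 in cluster 6 and 3062 ± 790.3 in cluster 8 (SD, n = 4, 4, 3, 4 and 4 strains). Cluster 8 was highest, and neighbours in this order overlapped in their strain values. The fitted range was 1.02 for Col1a1 and 0.74 for Col1a2 on the log2 scale (adjusted p = 0.00559 and 0.002, edgeR), and both calls were lost without the pool (0.13 and 0.0858).

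Col5a3 had the widest spread of the type V genes there, at 309.7 ± 104.8 in cluster 3, 201 ± 50.6 in cluster 6, 155 ± 159 in cluster 8, 138.4 ± 82.3 in cluster 1 and 32.4 ± 35.3 in cluster 5 (SD). Its fitted range of 4.09 missed the threshold (adjusted p = 0.056, edgeR) but passed with DESeq2 (0.0022). The median range was 1.03 over the 8 members and 1.98 over all genes.

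Muscles had been kept apart in the pool and for part of the PdgfrbGFP cells. Between soleus and gastrocnemius endomysial cells, 0% of 16337 genes and 0 of 8 members were called by edgeR, with 807 genes at an unadjusted p under 0.05 and 0.679% of genes called by DESeq2. Values of 5 of the 8 members and 29.7% of genes did not overlap. Col1a1 was at 11.88 in soleus and 11.93 in gastrocnemius log2 CPM in the pool and at 11.70 and 13.18 in PdgfrbGFP. Soleus was lower in both strains, with a log2 fold change of -0.76 ± 0.38 (SE, n = 2, adjusted p = 0.967, edgeR). The log2 fold changes of Col3a1 and Col1a2 were -0.65 ± 0.26 and -0.75 ± 0.27 (SE, n = 2). In the pool, muscle and plate cannot be told apart. The median was -0.33 over the 8 members and -0.02 over all genes.

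Co-expression across cells was described by Spearman correlations within each strain, averaged over strains; the cells share a library type, depth range and scaling. Col1a1 and Col1a2 correlated at 0.65 in endomysial cells (0.47 to 0.77 over 5 strains, 1116 cells) and at 0.89 in perimysial cells (0.77 to 0.95, 328 cells). Col1a1 and Col3a1 correlated at 0.62 in endomysial cells (0.55 to 0.69) and at 0.10 in perimysial cells (-0.40 to 0.42). Thus Col3a1 varied with type I in endomysial cells of every strain, and with no common sign in perimysial cells. Col3a1 and Col5a2, neighbours on chromosome 1 with 24.6 kb between them, correlated at 0.50 in endomysial and 0.39 in perimysial cells. In perimysial cells, Col1a1 also correlated with depth at -0.31 and Col3a1 at 0.03. The clusters of a class were not kept apart here, and they differed in their levels of Col1a1 and Col1a2. The part of depth and that of cluster were not tested.

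**Figure D5:**
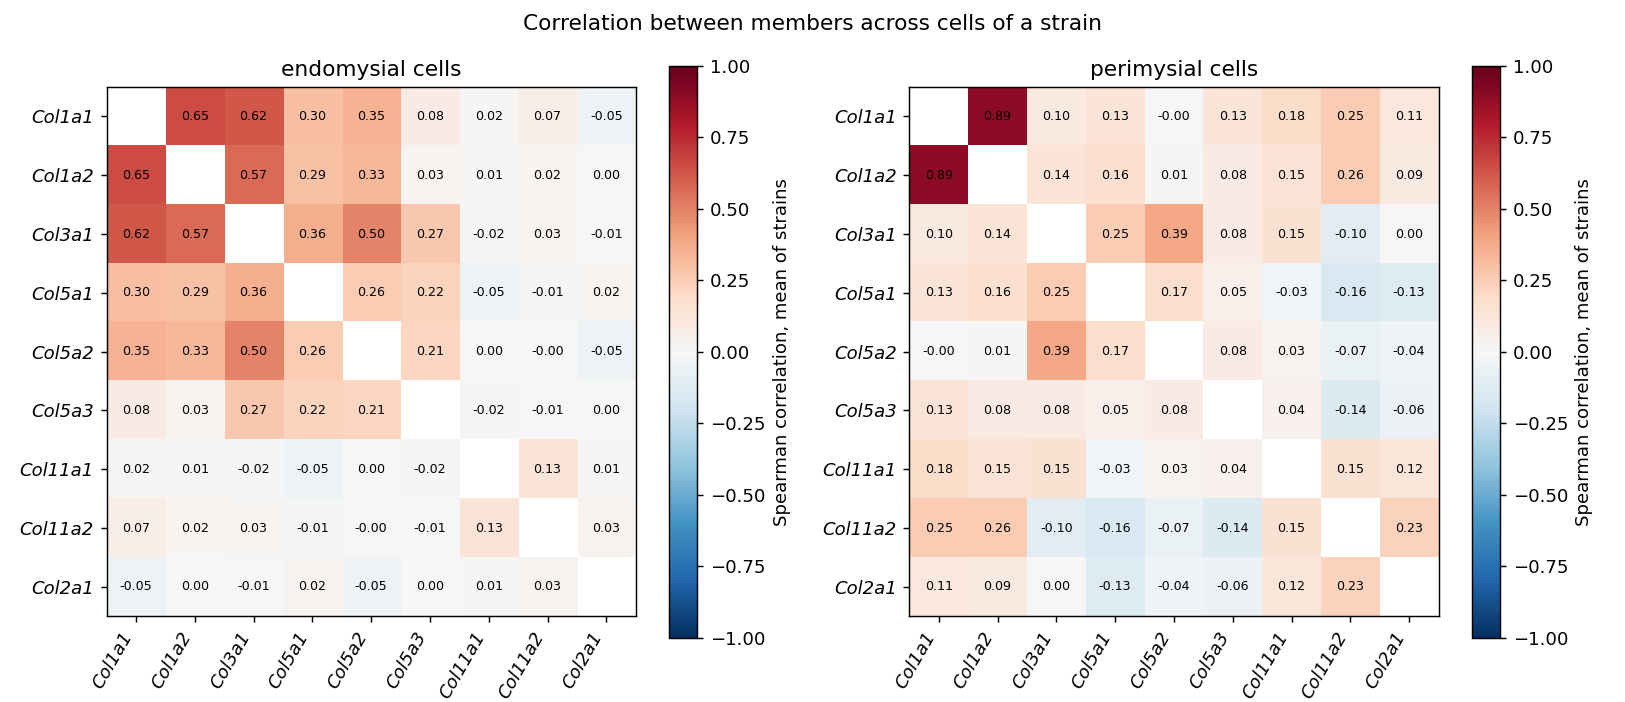
Spearman correlation (colour scale from -1 to 1) between 9 members, without Col24a1, across cells within a strain, as the mean of strains, for endomysial and perimysial cells. Col1a1 and Col3a1 are at 0.62 in endomysial and 0.10 in perimysial cells, and pairs that involve a type XI gene are between -0.16 and 0.26.

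The type XI chains were found both together and apart. Of 328 perimysial cells, 84 had both Col11a1 and Col11a2 at 100 or more scaled counts, 37 Col11a2 only, 98 neither and the rest Col11a1 only, out of 193 cells with Col11a1 in all. Col11a1 was thus in 69.4% of cells with Col11a2 and in 52.7% of those without, and it was higher with Col11a2 in 5 of 5 strains. Cells with both made up 20.0% in Acta2GFP, 28.3% in C57BL6, 5.56% in Cspg4dsRED, 47.2% in the pool and 18.4% in PdgfrbGFP. The pool, with the deepest cells (median 367563 counts over all classes), was highest and Cspg4dsRED, with the shallowest (121646), lowest. The part of depth in these shares was not tested. Median depth was 278692 counts in cells with Col11a2 and 235320 in those without.

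Col5a1 and Col11a1 were present in the same perimysial cells in 36 of 328, Col11a1 only in 157 and Col5a1 only in 17. Their correlation was -0.03 (-0.16 to 0.06). Of the 42 perimysial cells with Col2a1, 31 also had Col11a1 (73.8%, against 56.6% of cells without Col2a1) and 27 Col11a2 (64.3%, against 32.9%). Of the 18 with Col24a1, 13 had Col11a1 (72.2%, against 58.1% of cells without Col24a1), and 9 of these 13 came from C57BL6. The direction differed between strains. Col11a1 was more frequent with Col24a1 in C57BL6 (81.8% against 60.99%) and PdgfrbGFP (66.7% against 60.7%). It was less frequent in the pool (66.7% against 69.7%) and in Acta2GFP (0% of 1 cell against 52.9%). Cspg4dsRED had no cell with Col24a1. The correlation of Col11a1 with Col24a1 was 0.019 (-0.165 to 0.198 over 4 strains).

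Across 40 sums of cluster and strain, which share strains and clusters, the genes most like each member were listed by Pearson correlation of log2 CPM. Col1a1 and Col1a2 were each other's nearest gene of 16798 (0.99), followed by Serpinf1 (0.92 and 0.91), the gene of pigment epithelium-derived factor. Col5a1 was nearest to Col3a1 (0.89), and Col5a2 to Col6a1 (0.91), a chain of microfibrillar collagen VI. Col11a1 was nearest to Chad (0.87), Col11a2 to Kirrel3 (0.90), Col2a1 to Gm42793 (0.85), Col24a1 to Gm17232 (0.89) and Col5a3 to Lamb1 (0.84), a laminin chain. Col24a1 had a count in only 68 cells and Col2a1 in 165, so their correlations rest on many values near 0.

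Col3a1 was nearest to Gm47302 (0.94), which lies on its own exons on the same strand, so that their counts cannot be told apart in full, and next to Entpd2 (0.93) and Lum (0.90). Gm13372, second for Col5a1 (0.87), overlaps it on the other strand. Within the list, Col3a1 and Col11a2 had the lowest correlation over these sums (-0.62).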

How the data were processed

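Read counts per gene and cell had been deposited by the authors for single cells sorted from mouse skeletal muscle. Per their methods, single 50-base reads were mapped to GRCm38 with TopHat2 and counted with featureCounts, and shallow cells, possible doublets and cells without Pdgfra and Pdgfrb were dropped before clustering with pagoda2. The use of strand in counting is not given in the sources used here. Of the columns, 1 matched no label and was not used. Gene identifiers were matched to GENCODE M21 (46005 matched, 512 did not). Spike-ins (1.31% of counts) were left out. Depth per cell was 46097 to 1055869 counts, with a median of 258251.

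Counts were summed per class and strain label (3 or more cells) and tested over all genes with edgeR 4.0.16 (TMM, filterByExpr, quasi-likelihood, strain as block, R 4.3.3), with Benjamini-Hochberg adjustment and a threshold of 0.05. The block pairs classes of the same strain label; deviations from class means correlated at 0.03 to 0.30 within a strain, and at 0.13 to 0.30 for perimysial with endomysial cells. Ratios were tested with an exact sign-flip test over strains, on log2 differences, in Python 3.11.15 with scipy 1.17.1. Lengths are those of the principal transcript. The fits were tested on simulated counts. Alternatives were RLE size factors, no filter, DESeq2 1.42.0, no block, plates as units, cells weighted alike, equal numbers of cells, omission of 78 cells without Pdgfra and Pdgfrb or of low depth, and omission of each strain label.

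The members and the lists of pathway genes and markers were chosen with earlier results of these data known. Genes named are the members, Col27a1, the 7 factors, the 3 called pathway genes of highest and of lowest fold change (perimysial comparison), and the nearest genes by correlation. Pathway genes of the other comparisons are given in the closing section.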

Additional observations from a re-analysis of the deposited data

Results flagged for a closer look

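Class levels of the members by strain label were screened for a value far from the rest, in 40 groups of 4 or 5 labels, and 6 groups held such a value. Where all other labels are at 0, any single count is flagged, so the number of flagged groups cannot be set against a chance rate. All 6 were single high values in mural or paramysial cells. In mural cells, C57BL6 (9 cells) had 157 scaled counts of Col5a3, against 0.653 to 14.4 in the other strains, with 5 of its 9 cells at 100 or more. It also had 59.9 of Col5a1 against 1.03 to 10.7, of which 85.5% came from 1 cell. In these 9 cells Dcn was at 176 and Pdgfra at 2.14. Col24a1 was at 0.0545 in mural cells of PdgfrbGFP, from 1 cell, and at 0 in the other strains.

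In paramysial cells, the pool (46 cells, against 3 to 6 in the others) had 7.26 scaled counts of Col11a2 against 0 to 0.471, of which 77.8% came from 1 cell. It had 1.58 of Col24a1 and 0.647 of Col2a1, against 0 in the other strains for each.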

How the results depend on the processing

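The 8 calls in perimysial against endomysial cells and the 7 in mural cells stayed within 1.5 times these counts under every alternative, and no member reversed its sign there; with each strain label left out, counts were 7 to 9 and 6 to 8. The 3 ratios and shares kept their sign throughout. With plates as units they passed the threshold, at 3.56, 0.19 and 0.77 on the log2 scale (exact sign-flip permutation p = 0.0156 over 7 plates). Plates of a strain label are not independent, so this p is too small. Without each strain label the differences were 3.42 to 3.76, 0.14 to 0.21 and 0.62 to 0.86.

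Calls in paramysial against endomysial cells were 0 with DESeq2, with no replicate block and with equal numbers of cells, 3 with plates as units, and 0 to 4 with a strain label left out. Against perimysial cells they were 3 with equal numbers of cells, 7 with no replicate block and 4 to 7 with a label left out. For cluster 9 they were 0 with RLE size factors, plates as units, cells weighted alike and every omitted label, and 1 with no replicate block. Without the block no other count of calls moved. For cluster 10 they were 3 with no filter, 2 with DESeq2, 1 with plates as units and 0 to 1 with a label left out. Among endomysial clusters they were 4 with plates as units and 0 to 2 with a label left out.

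Signs that turned belonged to members that did not pass the test. In paramysial against endomysial cells, Col11a2 was at 0.15 with DESeq2, 0.79 with no replicate block, and -0.072 to 0.77 with a strain label left out (positive without Acta2GFP or C57BL6). In cluster 9, Col11a1 was at -0.16 with plates as units and -0.14 with equal numbers of cells, and Col24a1 at 0.18 with cells weighted alike. With a label left out, Col24a1 was at -0.99 to 0.32 there (positive without Acta2GFP, 0.32, or the pool, 0.11), Col5a2 at -0.28 to 0.14 (positive without Acta2GFP) and Col5a3 at -0.026 to 0.85 (negative without PdgfrbGFP). In cluster 10, Col5a3 was at -0.0049 with no filter, and Col5a1 at 0.049 with equal numbers of cells. With a label left out, Col5a3 was at -0.18 to 0.57 there (negative without PdgfrbGFP or the pool, -0.16), Col5a1 at -0.95 to 0.22 (positive without PdgfrbGFP) and Col5a2 at -0.65 to 0.015 (positive without Cspg4dsRED). Between muscles, Col11a1 was at 0.061 with equal numbers of cells. The cause was not tested.

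Counts of called genes over the whole table moved by more than 1.5 times in every comparison: 994 to 4336 against 2140 for mural cells, 395 to 2068 against 787 for perimysial cells, 0 to 796 against 14 for paramysial against endomysial cells, 0 to 993 against 55 for cluster 10, 258 to 2560 against 893 among endomysial clusters, 0.283% to 8.55% of genes against 0.871% for paramysial against perimysial cells, 0.292% to 7.16% against 0.920% for cluster 9, and 0% to 0.679% against 0% between muscles. DESeq2 gave the highest number in each. RLE size factors moved the median of all genes by over 0.1 on the log2 scale only in cluster 10, from -0.41 to -0.27. Few cells per strain limit the paramysial, mural and cluster 10 values.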

Other observations

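Genes of collagen processing and binding were also called in other comparisons. In mural cells, 2 of 44 tested were higher and 26 lower, beside 6.15% and 9.27% of all genes, with the collagen-binding integrin gene Itga1 higher by 2.58 ± 0.42 and the ion channel gene Tmem38b by 3.77 ± 0.87 on the log2 scale (SE, n = 5, adjusted p = 0.00437 and 0.0205, edgeR). Itga2 fell by 6.95 ± 1.48, Pcolce2, an enhancer of procollagen processing, fell by 6.42 ± 0.68, Adamts3 fell by 6.22 ± 1.27 and Plod1 fell by 1.09 ± 0.28 (adjusted p = 0.0141, 0.000595, 0.0118 and 0.0307, edgeR).

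In cluster 9 against cluster 2, 4 of 41 were called, all lower, beside 0.557% of all genes. Pcolce2 fell by 5.86 ± 0.48, Lox, a cross-linking enzyme, fell by 1.53 ± 0.17, Adamts2 fell by 2.31 ± 0.35 and Itga2 fell by 8.65 ± 1.34 (SE, n = 4, adjusted p = 0.00196, 0.0081, 0.0273 and 0.0309, edgeR). In paramysial against perimysial cells, 3 of 43 were called, beside 0.871% of all genes: Loxl1 was higher by 2.04 ± 0.35, P3h2 fell by 6.08 ± 1.06 and P4ha1 fell by 1.83 ± 0.33 (SE, n = 4, adjusted p = 0.0336, 0.0359 and 0.0403, edgeR). In cluster 10 against endomysial cells, 2 of 41 were called, beside 0.442% of all genes: Pcolce2 fell by 6.90 ± 0.52 and Loxl1 fell by 3.64 ± 0.49 (SE, n = 3, adjusted p = 0.0127 and 0.0469, edgeR).

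Among endomysial clusters, 11 of 45 were called, beside 5.41% of all genes, with fitted log2 ranges of 10.9 for Tll2, 6.48 for Colgalt2 and 5.16 for Lox at the wide end and of 0.42 for Sparc, 0.60 for Pcolce and 1.01 for Ddr2 at the narrow end (adjusted p = 0.0034, 0.00472, 1.76e-05, 0.0417, 0.00128 and 0.0136, edgeR). In paramysial against endomysial cells and between muscles, 0 of 45 were called by edgeR.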
